A study of Mus musculus with 12 samples.

Results

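Gene expression after inhibition of miR-223 was compared between 3 arrays of RAW 264.7 cells transfected with anti-miR-223 (replicates 1 to 3) and 4 arrays of cells transfected with an irrelevant scramble oligonucleotide. These were 7 of the 12 arrays in the study; replicate 4 of anti-miR-223 was left out because it stood far from all other arrays, and 4 arrays of cells given pre-miR-223, a mimic of the microRNA, are cited only where stated. RAW 264.7 is a mouse line of adherent macrophage-like cells that carries the Abelson leukaemia virus, and all groups came from this 1 line, were grown to confluency and were collected 48 h after transfection. The arrays are titled biological replicates, with no statement of whether they were separate cultures, so the p-values below measure only the spread between these arrays. Values were log2 signals. A gene was represented by its brightest transcript cluster with a single gene symbol, and it was tested where the mean of the 7 arrays was above log2 4, which left 6957 of 22180 genes. Aen (4.00009) and Ccdc82 (4.00027) lay just inside this limit, and Engase (3.99996) and Rbpms (3.99977) just outside it. Of the tested genes, 134 had an anti-miR-223 mean and 28 a scramble mean at or under log2 4, so they passed only through the other group. The values of genes that passed only through 1 group are a description. All tested genes were selected on their mean level over the compared arrays, and the array left out was chosen by its measured distance from the others. The p-values and intervals below were computed after these choices, so they describe the selected arrays and genes and are not an independent test.

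MiR-223 is a microRNA of the myeloid lineage, encoded on the X chromosome. Like other microRNAs it guides Argonaute proteins to matching sites, mostly in the 3′ untranslated regions of messenger RNAs, through its seed, and bound messengers are translated less and decay faster. Its reported targets include the transcription factor Mef2c, which supports the proliferation of granulocyte progenitors, and Nlrp3, the sensor of an inflammasome. An antisense inhibitor pairs with the mature microRNA and keeps it from its targets. Both mature strands are shown because miR-223 is the target of the inhibitor, whose own sequence and strand are not given in the sources used here. The seed (bases 2 to 8) is in capitals. They are RefSeq sequences of build GRCm38.p6, at chrX:96242884-96242905 and chrX:96242842-96242864, plus strand.
miR-223-3p: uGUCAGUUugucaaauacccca
miR-223-5p: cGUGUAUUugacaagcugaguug
A messenger site that pairs with the seed of miR-223-3p reads AACUGAC, and no other of the 1738 mature mouse microRNAs in the table carried this seed. The 1 cluster annotated to Mir223 carried a further gene symbol and was not used, so the delivery of the inhibitor was not checked here.

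Medians of the 12 arrays over all clusters lay between 2.21 and 2.31. In replicate 4 of anti-miR-223, 8.71% of the tested genes lay over 2-fold from the mean of the other compared arrays, against 0.0287% to 0.359% of genes in the scramble arrays. The macrophage label was checked against markers: 23 of 36 macrophage identity genes with a cluster lay above log2 4, with Lyz2, encoding lysozyme, at 11.24, Cd68 at 9.89, Csf1r, the receptor of the macrophage growth factor, at 9.20 and Adgre1 (F4/80) at 6.93. Genes of resident tissue macrophages were below the limit, among them Mrc1 at 1.82, Timd4 at 1.89 and C1qa at 2.52. No marker of fibroblasts, epithelium, lymphoid cells, neutrophils and dendritic cells, or endothelium was above log2 4. The brightest markers of these lists were Acta2 at 3.21, Krt8 at 3.48, Il7r at 3.85, Itgax at 3.24 and Eng at 3.73. In bulk RNA, fewer cells of a type and less RNA per cell cannot be told apart.

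No gene passed the test between anti-miR-223 and scramble. Limma called 0 of 6957 genes (0.00%) at a Benjamini-Hochberg adjusted p under 0.05, and the lowest adjusted p was 0.346; an ordinary linear model also called 0. At an unadjusted p under 0.05 limma gave 637 genes (9.16%), of which 589 (8.47%) were lower and 48 (0.690%) higher with anti-miR-223, and the ordinary linear model gave 406. About 348 genes would be expected at that p by chance, but genes measured on the same arrays are not independent. The groups did not overlap for 444 lower genes (6.38%) and 42 higher genes (0.604%). The median half-width of a 95% confidence interval was 0.26, and it left out any difference past 1.5-fold in either direction for 89.3% of genes and past 2-fold for 99.5%.

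Lower values were in excess among the tested genes and not among the dimmer ones. Of all tested genes, 5575 (80.1%) had a lower mean with anti-miR-223 and 1382 (19.9%) a higher one, and the median difference was -0.11 on the log2 scale. With single arrays left out this median ranged from -0.16 (without anti-miR-223 replicate 3) to -0.07 (without scramble replicate 2). It was -0.0242 with replicate 4 of anti-miR-223, -0.04 with quantile normalisation repeated and -0.0165 with cyclic loess. Of the 15223 genes not above the limit, 43.9% were lower, and their median difference was 0.02. Relative to the mean of the 7 arrays, the median gene stood at -0.10, -0.12 and 0.05 in anti-miR-223 replicates 1, 2 and 3, and at 0.02, 0.15, 0.00 and 0.01 in scramble replicates 1 to 4. Anti-miR-223 replicates 1 and 2 were therefore low and scramble replicate 2 was high, while replicate 3 of anti-miR-223 lay above 3 of the 4 scramble arrays. Among the tested genes the median was -0.11 at log2 4 to 5 and -0.06 above log2 9. The first principal component of the 7 arrays, with 50.9% of the variance, placed anti-miR-223 replicates 1 and 2 (-11.8 and -15.7) and scramble replicate 2 (19.5) at its ends.

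With each array centred on its own median, 3464 genes (49.8%) were lower and 3493 (50.2%) higher. The count at an unadjusted p under 0.05 was then 419, beside about 348 expected by chance. There were 208 lower (2.99%) and 211 higher (3.03%), and the lowest adjusted p from limma was 0.509. Of these, 255 genes had an unadjusted p under 0.05 in the same direction in both fits. The centred groups did not overlap for 208 lower genes (2.99%) and 255 higher genes (3.67%). Centred differences are given below beside the deposited ones, since they are relative to the shift of all tested genes. List counts of lower genes are to be read beside the 80.1% of all tested genes, or 49.8% after centring. With replicate 4 of anti-miR-223 restored, 76 genes had an unadjusted p under 0.05, 67 lower (0.963%) and 9 higher (0.129%), and no gene was called.

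**Figure D1:**
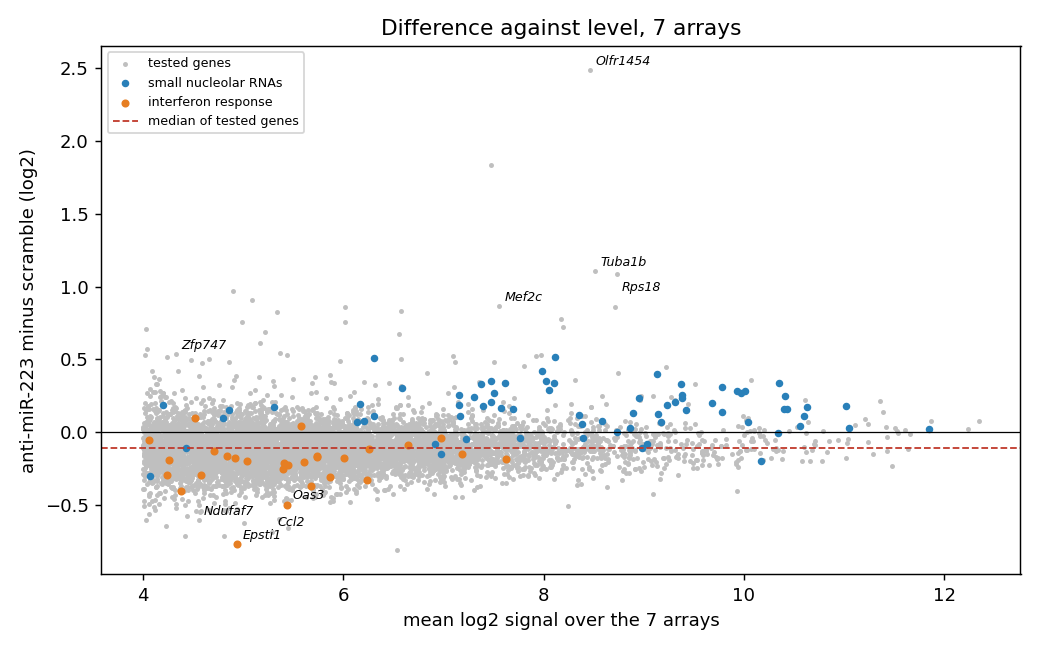
Difference between anti-miR-223 (3 arrays) and scramble (4 arrays) on the log2 scale, against the mean log2 signal of the 7 arrays, for 6957 genes. The dashed line is the median gene at -0.11; small nucleolar RNAs (blue) lie mostly above 0, interferon response genes (orange) mostly below it, and a few genes such as Olfr1454 at 2.49 lie far above the rest.

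Epsti1, an interferon-induced gene, had the smallest p of all genes. It was at 4.50, 4.32 and 4.67 with anti-miR-223 and at 5.48, 5.31, 5.22 and 5.04 with scramble. All 3 anti-miR-223 arrays were below all 4 scramble arrays. The means were 4.50 ± 0.17 (SD, n = 3) and 5.27 ± 0.18 (SD, n = 4), a difference of -0.77 (95% CI -1.04 to -0.49), or -0.66 after centring. By limma the unadjusted p was 4.97e-05 and the adjusted p 0.346. Replicate 4 of anti-miR-223, at 5.19, lay among the scramble values, and the difference was -0.59 with it.

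The other lower genes with the smallest p were of mixed function. Atp13a1, a transporter of the endoplasmic reticulum that removes misplaced membrane proteins, was at 4.40, 4.49 and 4.67 with anti-miR-223 and at 5.01, 5.11, 5.04 and 5.08 with scramble. Its difference was -0.54 (95% CI -0.77 to -0.31). Ndufaf7, an assembly factor of respiratory complex I, was at 4.23, 4.04 and 4.35 against 4.75, 4.999, 4.68 and 4.82, a difference of -0.60. For both genes the groups were separate, while replicate 4 of anti-miR-223 reached 5.41 for Atp13a1 and 4.83 for Ndufaf7. Ercc4, a nuclease of nucleotide excision repair, differed by -0.49 (-0.71 to -0.27). Its scramble mean of 4.37 brought it past the limit, since the anti-miR-223 mean was 3.88. Telo2, which helps to assemble the large kinases of the DNA damage response, had 4 close scramble values from 4.60 to 4.66 and anti-miR-223 values from 3.99 to 4.27. Atp2b4, a calcium pump of the plasma membrane, differed by -0.47 and Ppp2r3c, a regulatory subunit of protein phosphatase 2A, by -0.59. Nfkbid, a nuclear regulator of NF-kB, differed by -0.49 (-0.75 to -0.22). Ulbp1, a stress-induced ligand of natural killer cells, differed by -0.55, but only by -0.09 with replicate 4 of anti-miR-223, which was at 6.09. The groups did not overlap for any of these genes, and the adjusted p from limma lay between 0.489 and 0.526.

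Ccl2, encoding the chemokine that draws monocytes, was the only gene among these 10 with overlapping groups. It was at 4.79, 4.75 and 5.15 with anti-miR-223 and at 5.06, 5.71, 5.73 and 5.81 with scramble. Scramble replicate 1 lay within the range of anti-miR-223, far below the other scramble arrays. The difference was -0.68 (95% CI -1.06 to -0.31), or -0.57 after centring and -0.57 with replicate 4 of anti-miR-223, and the adjusted p from limma was 0.526.

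The 10 higher genes with the smallest p had smaller differences on the deposited scale only. There they differed by 0.285 to 0.53, and the 10 lower genes by -0.77 to -0.47. After centring the ranges were 0.39 to 0.64 and -0.66 to -0.37. Zfp747, a zinc finger gene, was at 4.66, 4.72 and 4.53 with anti-miR-223 and at 3.97, 4.08, 4.38 and 3.97 with scramble. The groups were separate, the difference was 0.53 (95% CI 0.27 to 0.80), and replicate 4 of anti-miR-223 lay far below both groups at 3.24. Tma7, a protein associated with the translation machinery, was at 8.27, 8.25 and 8.33 against 7.68, 7.31, 8.15 and 7.85, a difference of 0.53. Its other cluster differed by 0.10, and replicate 4 of anti-miR-223 was at 6.72. Terc, the RNA template of telomerase, was at 8.17, 8.16 and 7.87 against 7.75, 7.44, 7.87 and 7.39, so anti-miR-223 replicate 3 fell just below scramble replicate 3. Its difference was 0.45 (0.15 to 0.76), or 0.05 with replicate 4 of anti-miR-223.

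Rps27, a protein of the small ribosomal subunit, was at 4.98, 4.94 and 5.48 against 4.85, 4.67, 4.74 and 4.34, with separate groups and a difference of 0.48 (95% CI 0.15 to 0.82), which was 0.31 without anti-miR-223 replicate 3. Ribosomal protein genes have many near-identical copies, so the source of this signal is uncertain. Igsf8, an immunoglobulin superfamily partner of tetraspanins, differed by 0.33, with its scramble mean just under the limit, Aph1c, a gamma-secretase subunit, by 0.34 and Acot9, a mitochondrial thioesterase, by 0.31. Chmp6, of the ESCRT-III membrane remodelling complex, and Zc3h3, a zinc finger protein of messenger RNA export, differed by 0.29 and 0.28. The groups were separate for these 5 genes on the deposited scale. Ankhd1, an ankyrin repeat gene, was at 6.98, 7.03 and 7.19 against 6.34, 6.45, 6.83 and 7.03, so that its groups overlapped; its difference was 0.40 in this cluster and -0.08 in the other. The adjusted p from limma was 0.526 for each of the 10 genes.

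**Figure D2:**
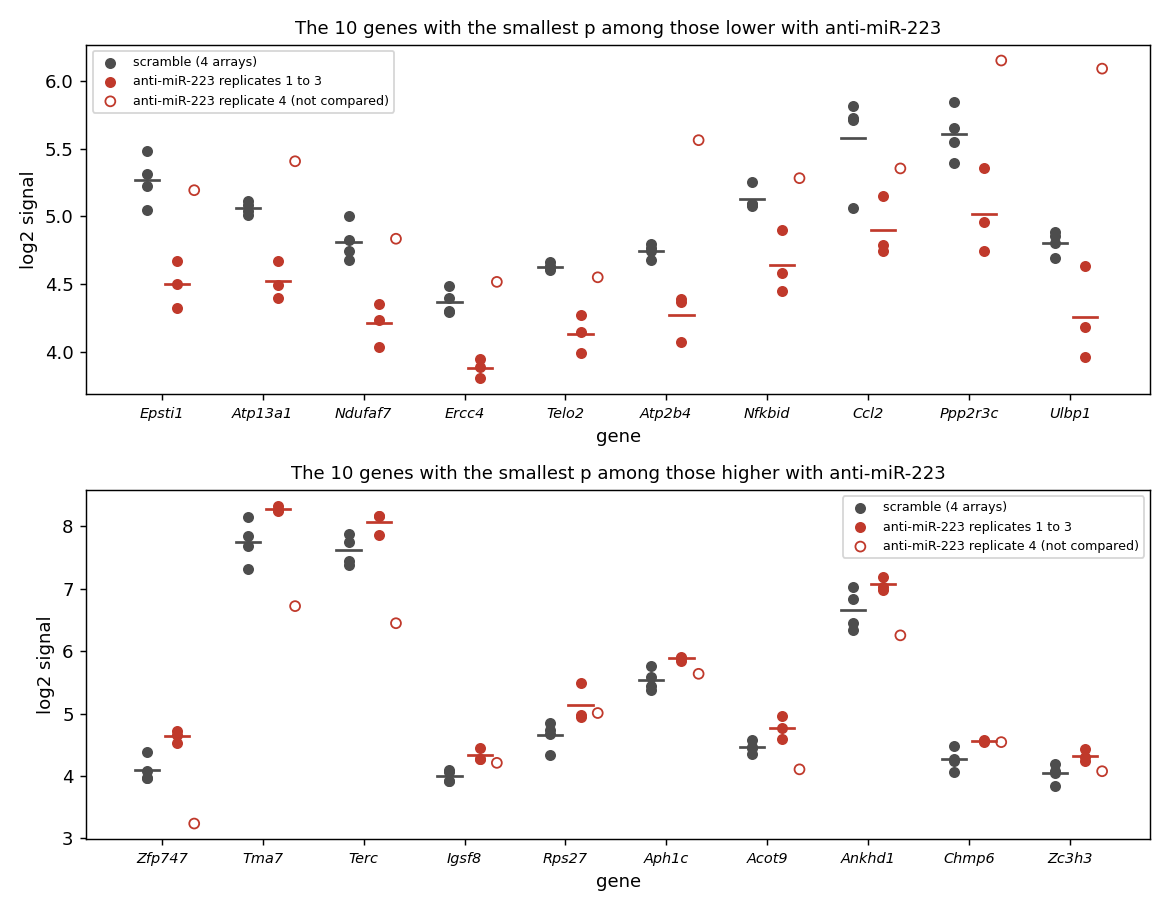
Log2 signal of the 10 lower (upper panel) and 10 higher (lower panel) genes with the smallest p, with 1 point per array and a bar at each group mean. Filled red points are anti-miR-223 replicates 1 to 3, grey points scramble, and the open circle is the uncompared replicate 4, which lay above the other anti-miR-223 arrays for all 10 lower genes, and below them for the higher genes except Rps27 and Chmp6.

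Reported targets of miR-223 followed the shift of all genes. Of 34 tested members, 32 were lower and 2 higher, with a median of -0.11, the same as the median of all tested genes; after centring 17 were lower and 17 higher, with a median of 0.00. None was called, and 3 had an unadjusted p under 0.05, all lower, where 8.47% of all tested genes did. The 3 were Cxcl2 at -0.42 (95% CI -0.69 to -0.15), the lipoprotein receptor gene Scarb1 at -0.32 and Ank at -0.32. Nlrp3 was at 5.32, 5.53 and 5.75 with anti-miR-223 and at 5.83, 5.79, 5.51 and 5.62 with scramble. Its groups overlapped, and the difference was -0.15 (-0.43 to 0.12), or -0.05 after centring. Leaving out anti-miR-223 replicate 1 gave -0.046, and leaving out replicate 3 gave -0.26.

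The cell-cycle transcription factor E2f1 differed by -0.08 (95% CI -0.32 to 0.15), the microtubule destabiliser Stmn1 by -0.07 (-0.34 to 0.20), the ubiquitin ligase subunit Fbxw7 by -0.10 (-0.33 to 0.13) and the haematopoietic cofactor Lmo2 by -0.01 (-0.29 to 0.27). These 4 turned positive after centring, to 0.02, 0.04, 0.00 and 0.10. Nfia, Rhob and Foxo3 were not among the genes tested. Mef2c was the exception in size, at 8.15, 8.24 and 7.75 against 6.65, 5.95, 8.28 and 7.84. Its 3 anti-miR-223 arrays lay close to scramble replicates 3 and 4, and scramble replicates 1 and 2 were low. The difference was 0.87 (-0.04 to 1.77), against 0.46 without scramble replicate 2, -0.10 with replicate 4 of anti-miR-223, which was at 4.19, and -0.12 in the other Mef2c cluster.

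Genes of the interferon response, which encode antiviral effectors driven by STAT and IRF factors, were mostly lower. Of 28 tested, 26 were lower, beside 80.1% of all tested genes. The list median was -0.19, or -0.08 after centring with 23 of 28 lower. None was called. At an unadjusted p under 0.05 were 5 genes, all lower, where 8.47% of all tested genes were lower at that p; after centring 2 were, beside 2.99%. Leaving out single arrays, the list median minus that of all genes ranged from -0.13 to -0.06, and it was -0.06 with replicate 4 of anti-miR-223 and -0.0208 with that array and array weights. Beside Epsti1, the 5 were Oas3, which makes the activator of RNase L, at -0.50 (95% CI -0.82 to -0.17), the related gene Oasl1 at -0.40, the ADP-ribosyltransferase gene Parp9 at -0.37 and Irf9, the DNA-binding subunit of the interferon-activated factor, at -0.31. Isg15, a ubiquitin-like modifier, differed by -0.29 (-0.58 to 0.00) and Irf7, a transcription factor of the response, by -0.17 (-0.46 to 0.12). Stat2 differed by -0.05, and Samd9l, a restriction factor, by 0.10, or 0.20 after centring. Genes upstream of the response, the receptors, sensors and kinases, had 12 of 18 lower and a median of -0.10, or 0.01 after centring. Among these, Irf3 differed by -0.28 (-0.53 to -0.04) and the feedback inhibitor Socs3 by 0.24 (-0.15 to 0.63).

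The interferon-stimulated response element, written GAAANNGAAA, was sought on both strands of the 250 bases before each RefSeq gene start. It was found for 5 of 23 interferon genes with a promoter in the table (Isg15, Oas1g, Oas3, Stat2 and Bst2), against 3.46% of 27025 genes. The 5 genes with a match had a median difference of -0.25, and the 18 without one had -0.17. The windows of Oas3 and Isg15 (strand of the gene, motif in capitals, build GRCm38.p6) are shown because these genes with a match had large differences; that of Stat2 is shown because it has a match and a small difference.
Oas3, chr5:120777715-120777744, minus strand: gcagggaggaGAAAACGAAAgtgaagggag
Isg15, chr4:156200877-156200906, minus strand: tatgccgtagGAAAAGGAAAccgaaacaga
Stat2, chr10:128270266-128270295, plus strand: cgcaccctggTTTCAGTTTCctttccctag
Oas3 was at 5.64 with scramble and 5.15 with anti-miR-223, Isg15 at 4.70 and 4.41, and Stat2 at 4.08 and 4.03. A match describes the sequence only.

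All 7 tested chemokine genes were lower, beside 80.1% of all tested genes. Their median was -0.19, or -0.08 after centring with 6 of 7 lower. The list median minus that of all genes ranged from -0.15 to -0.06 with single arrays left out and was -0.21 with replicate 4 of anti-miR-223. Cxcl2, a neutrophil-attracting chemokine, was at 4.36, 4.50 and 4.81 with anti-miR-223 and at 4.83, 4.98, 5.11 and 4.99 with scramble. The groups were separate by a narrow margin, between anti-miR-223 replicate 3 and scramble replicate 1. Cxcl14 differed by -0.31, Ccl9 by -0.18 and Ccl3 by -0.19. Of the chemokine receptors 2 were tested: Cx3cr1, the fractalkine receptor, at -0.25 and Cxcr4 at 0.00.

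Genes of NF-kB driven inflammation had 19 of 22 lower and a median of -0.12, which was -0.02 after centring with 12 of 22 lower. Nfkb2, the precursor of a DNA-binding NF-kB subunit, was at 5.64, 5.61 and 5.79 against 5.94, 5.94, 5.99 and 6.18. Its groups were separate, and the difference was -0.33 (95% CI -0.57 to -0.10), or -0.23 after centring. Sod2, the mitochondrial superoxide dismutase, differed by -0.24, and Marcksl1, a kinase substrate, by 0.06. The NF-kB motif GGGNNTTTCC, sought in the same windows, was found for 2 of 4 chemokine genes and 3 of 19 NF-kB list genes with a promoter, against 1.65% of all genes. The windows below belong to the members of these lists with separate groups and a match.
Cxcl2, chr5:90903792-90903821, plus strand: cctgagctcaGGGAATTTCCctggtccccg
Nfkb2, chr19:46305695-46305724, plus strand: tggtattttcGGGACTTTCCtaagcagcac
Of the other matches, Nfkbia, encoding the main inhibitor of NF-kB, differed by -0.08 and Rel by -0.16.

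Sterol genes were mostly lower, as were 80.1% of all tested genes. Cholesterol synthesis had 13 of 15 lower and a median of -0.18, or -0.07 after centring with 11 of 15 lower. The genes that control the pathway or take up sterols had 10 of 10 lower and a median of -0.21, or -0.10 after centring with 9 of 10 lower. Each list had 3 genes at an unadjusted p under 0.05, all lower, beside 8.47% of all tested genes, and 1 after centring, beside 2.99%. None was called. With replicate 4 of anti-miR-223 the cholesterol synthesis median was -0.01 with 9 of 15 lower, beside -0.0242 for all tested genes. The control and uptake median was then -0.10, with 9 of 10 lower. Dhcr7, which catalyses the last step to cholesterol, was at 4.35, 4.25 and 4.67 with anti-miR-223 and at 4.91, 5.08, 4.74 and 4.68 with scramble. Its groups just failed to overlap, and the difference was -0.43 (95% CI -0.72 to -0.14), or -0.32 after centring. Mylip, a sterol-responsive ubiquitin ligase, was at 4.41, 4.56 and 4.801 against 4.93, 5.22, 5.003 and 4.84, also with separate groups, and differed by -0.41 (-0.69 to -0.14). In both genes replicate 4 of anti-miR-223 lay above all scramble arrays, at 5.53 and 5.50.

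Srebf2, encoding the main activator of sterol genes, differed by -0.15 (95% CI -0.41 to 0.11), Insig1, its retention factor, by -0.23, and Mvk, mevalonate kinase, by 0.13. The sterol regulatory element TCACNCCAC was found only in Hmgcs1 among 12 cholesterol synthesis genes with a promoter (1.23% of all genes). Hmgcs1 differed by -0.10, and the 11 without the element had a median of -0.18. The CCAAT box was found in 12 of 12 (37.5% of all genes and 40.3% of tested genes). Of 7 control and uptake genes with a promoter, 0 had the sterol element and 5 the CCAAT box. Of the LXR and efflux genes 6 of 6 were lower, with a median of -0.15, or -0.04 after centring; the exporter Abca1 differed by -0.15 (-0.40 to 0.09). Fatty acid synthesis had 12 of 12 lower and a median of -0.13, or -0.02 after centring, and with replicate 4 of anti-miR-223 it had 7 of 12 lower. Malic enzyme, Me1, differed by -0.32 (-0.66 to 0.02). Leaving out anti-miR-223 replicate 2 gave -0.14, and leaving out replicate 3 gave -0.51.

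Small nucleolar RNAs direct chemical changes to bases of ribosomal RNA. They and the related Cajal body RNAs went the other way. Of 71 tested, 60 were higher with anti-miR-223 and 11 lower, with a median of 0.17, or 0.27 after centring with 66 higher. None was called, and 6 had an unadjusted p under 0.05, all higher, where 0.690% of all tested genes did; after centring 16 were higher at that p, beside 3.03%. Relative to the mean of the 7 arrays the list stood at 0.18, 0.14 and -0.04 in anti-miR-223 replicates 1 to 3 and at -0.24, -0.22, 0.23 and -0.05 in scramble replicates 1 to 4. Scramble replicate 3 was thus the highest array, scramble replicates 1 and 2 were low, and the groups overlapped. The list median minus that of all genes ranged from 0.19 without scramble replicate 2 to 0.39 without anti-miR-223 replicate 3. In replicate 4 of anti-miR-223 the list stood at -1.59, and with this array in the fit 67 of 71 were lower, with a median of -0.22.

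Snora30 had the smallest p of the list, at 6.68, 6.66 and 6.44 with anti-miR-223 and at 5.70, 6.09, 6.55 and 6.01 with scramble. Its difference was 0.51 (95% CI 0.15 to 0.87), and scramble replicate 3 lay within the range of anti-miR-223. Snora44 differed by 0.40, Scarna2 by 0.51 and Snord13 by -0.19. By gene type, the median difference was -0.11 over 6687 protein-coding genes, 0.16 over the 68 clusters annotated as small nucleolar RNA and 0.00 over 63 long noncoding RNAs.

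**Figure D3:**
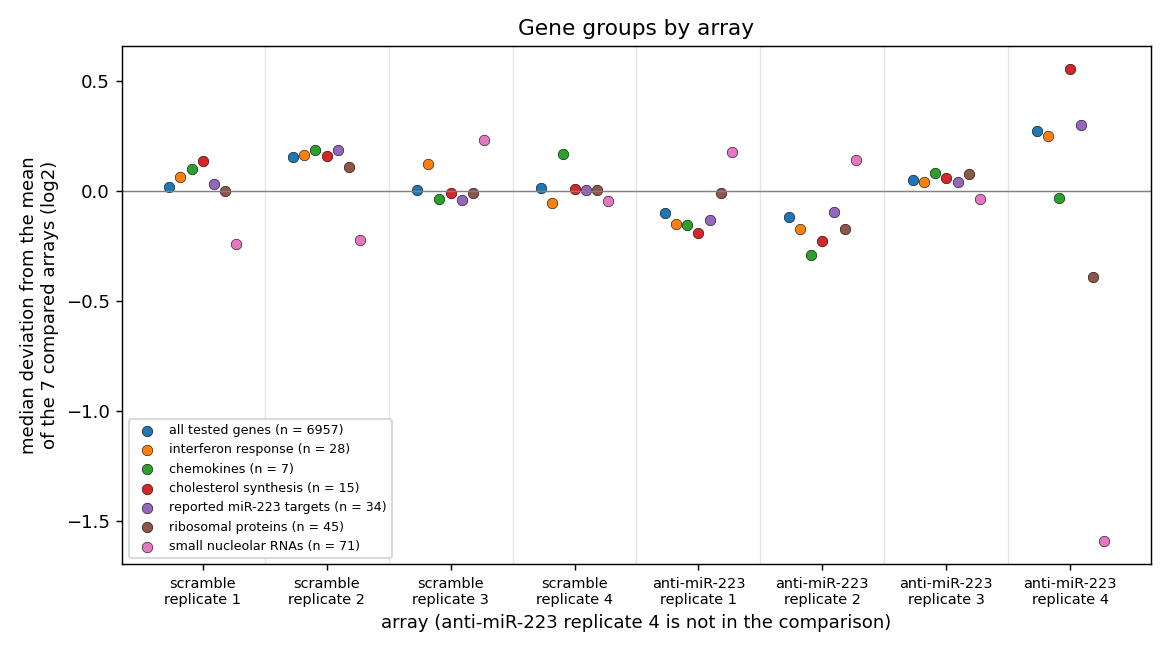
Median deviation from the mean of the 7 compared arrays (log2) of all tested genes and 6 gene lists, with 1 column per array and 1 point per list; anti-miR-223 replicate 4, at the right, is not in the comparison. Small nucleolar RNAs (pink) stand on the other side of 0 from all tested genes in every array except scramble replicate 3 and reach -1.59 in replicate 4 of anti-miR-223, and all lists stand lower in anti-miR-223 replicates 1 and 2 than in scramble replicate 2 except the small nucleolar RNAs.

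MicroRNA genes were measured through clusters at their loci, and which form of the RNA they report is not stated. Of 39 tested, 24 were higher and 15 lower, with a median of 0.03, or 0.14 after centring. At an unadjusted p under 0.05 were 5 higher (Mir1963, Mir92b, Mir5112, Mir210 and Mir187) and 1 lower (Mir344d-2), and none was called; 0.690% of all tested genes were higher and 8.47% lower at that p. After centring 6 were higher and 0 lower, beside 3.03% and 2.99%. Mir1963 was at 4.48, 4.48 and 4.14 with anti-miR-223 and at 3.87, 3.42, 3.80 and 4.08 with scramble. Its means were 4.37 and 3.79, so it passed the limit on level only through the anti-miR-223 arrays, and its difference of 0.57 is a description. Mir92b was at 5.26, 5.09 and 4.99 against 4.89, 4.76, 4.73 and 4.65, a difference of 0.36 (0.12 to 0.60). Both had separate groups, and replicate 4 of anti-miR-223 was below every compared array for each, at 3.34 and 4.05. Their mature RefSeq forms, with the seed in capitals, show that neither shares the seed of miR-223-3p.
miR-1963: uGGGACGAgaucaugaggccuuc
miR-92b-3p: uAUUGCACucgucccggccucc
miR-92b-5p: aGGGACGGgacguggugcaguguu
Genes of the microRNA machinery had 11 of 13 lower and a median of -0.13, or -0.02 after centring. The deadenylase subunit Cnot7 differed by -0.28 (-0.53 to -0.03), the helicase Ddx6 by -0.25, the hairpin-cutting enzyme Dicer1 by -0.26, the decapping enzyme Dcp2 by 0.02 and Ago2, which holds the microRNA, by -0.10.

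Genes of the ribosome and of respiration had medians slightly above that of all tested genes, and the margin moved with single arrays. Ribosomal proteins had 30 of 45 lower and a median of -0.05, or 0.06 after centring with 30 of 45 higher; Rpl32 differed by -0.22 (95% CI -0.48 to 0.04). Respiratory chain subunits had 43 of 62 lower and a median of -0.06, or 0.05 after centring. The median minus that of all tested genes was 0.0573 for ribosomal proteins, with a range of 0.0268 (without anti-miR-223 replicate 1) to 0.074 with single arrays left out, and 0.0086 with quantile normalisation repeated. For the respiratory chain it was 0.0492, and it turned to -0.005 without scramble replicate 2. With replicate 4 of anti-miR-223 both medians were below that of all genes, at -0.13 and -0.15. Cox7b, a subunit of cytochrome oxidase, differed by 0.33 (0.01 to 0.65) and its relative Cox7a2 by -0.24 (-0.50 to 0.01). Proteasome subunits had 32 of 35 lower and a median of -0.07, or 0.04 after centring. Relative to all tested genes this median was 0.0357, and -0.0098 without scramble replicate 1. Its members included Psmd13 at -0.26 and Psma6 at 0.02.

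Cell-cycle genes followed the shift of all genes. G1/S replication had 35 of 37 lower and a median of -0.12 (-0.01 after centring), and G2/M mitosis 35 of 38 lower and a median of -0.09 (0.02 after centring). Mcm2, a subunit of the replicative helicase, was at 6.31, 6.15 and 6.62 against 6.75, 6.95, 6.495 and 6.71, a difference of -0.37 (95% CI -0.66 to -0.07) with overlapping groups. Gins3, its partner, differed by 0.10. The mitotic kinases Aurka and Bub1 differed by -0.30 (-0.59 to -0.02) and 0.06. Of p53 targets 10 of 12 were lower, with a median of -0.10 (0.01 after centring). Mdm2, the ligase that restrains p53, differed by -0.38 (-0.69 to -0.08) with separate groups, and the nuclease Aen by 0.04.

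Stress pathways differed in where they stood relative to all tested genes. The unfolded protein response had 20 of 22 lower and a median of -0.12 (-0.01 after centring), with the chaperone partner Sdf2l1 at -0.24 and the translocon subunit Sec61b at 0.82 (95% CI -0.08 to 1.73). Sec61b had scramble replicate 1 at 3.66 and replicate 3 at 5.99, a spread wider than the difference. The integrated stress response had 11 of 16 lower and a median of -0.03, or 0.08 after centring with 13 of 16 higher. Its median minus that of all tested genes was 0.0767, ranging from 0.0499 to 0.0959 with single arrays left out, and 0.0195 with replicate 4 of anti-miR-223. Its members included Wars, a tRNA synthetase, at -0.17 and the transcription factor Cebpb at 0.16. The NRF2 response had 17 of 18 lower and a median of -0.14 (-0.03 after centring), with Gclm, of glutathione synthesis, at -0.29 (-0.54 to -0.04) and Srxn1 at 0.15. Glycolysis and hypoxia genes had 20 of 20 lower and a median of -0.11 (0.00 after centring). Among them Ero1a, an oxidase of the endoplasmic reticulum, was at 6.65, 6.56 and 6.63 against 6.92, 7.33, 6.90 and 6.86, with separate groups and a difference of -0.39 (-0.66 to -0.12). Its other cluster differed by 0.09.

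Macrophage function lists gave small medians. Macrophage identity had 17 of 23 lower and a median of -0.14 (-0.03 after centring), with the antibody receptor Fcgr1 at -0.23 (95% CI -0.45 to 0.00). Osteoclast genes had 12 of 14 lower and a median of -0.13 (-0.02 after centring). The kinase Src was at 4.29, 4.29 and 4.34 against 4.43, 4.68, 4.60 and 4.66, with separate groups and a difference of -0.28 (-0.51 to -0.06). Tnfrsf11a, the receptor of the osteoclast factor RANKL, differed by -0.41 and the collagen protease Ctsk by 0.19. Lysosomal genes had 24 of 28 lower and a median of -0.11 (-0.01 after centring), with the protease Ctsh at -0.30. Antigen presentation had 12 of 13 lower and a median of -0.08 (0.03 after centring), with the co-stimulator Cd80 at -0.32 and H2-M3 at 0.03. Complement had 4 of 4 lower and a median of -0.18 (-0.07 after centring), led by properdin, Cfp, at -0.23, and alternative activation had 2 of 4 lower and a median of -0.05 (0.06 after centring). The core histone list matched 1 gene, which was not tested.

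**Figure D4:**
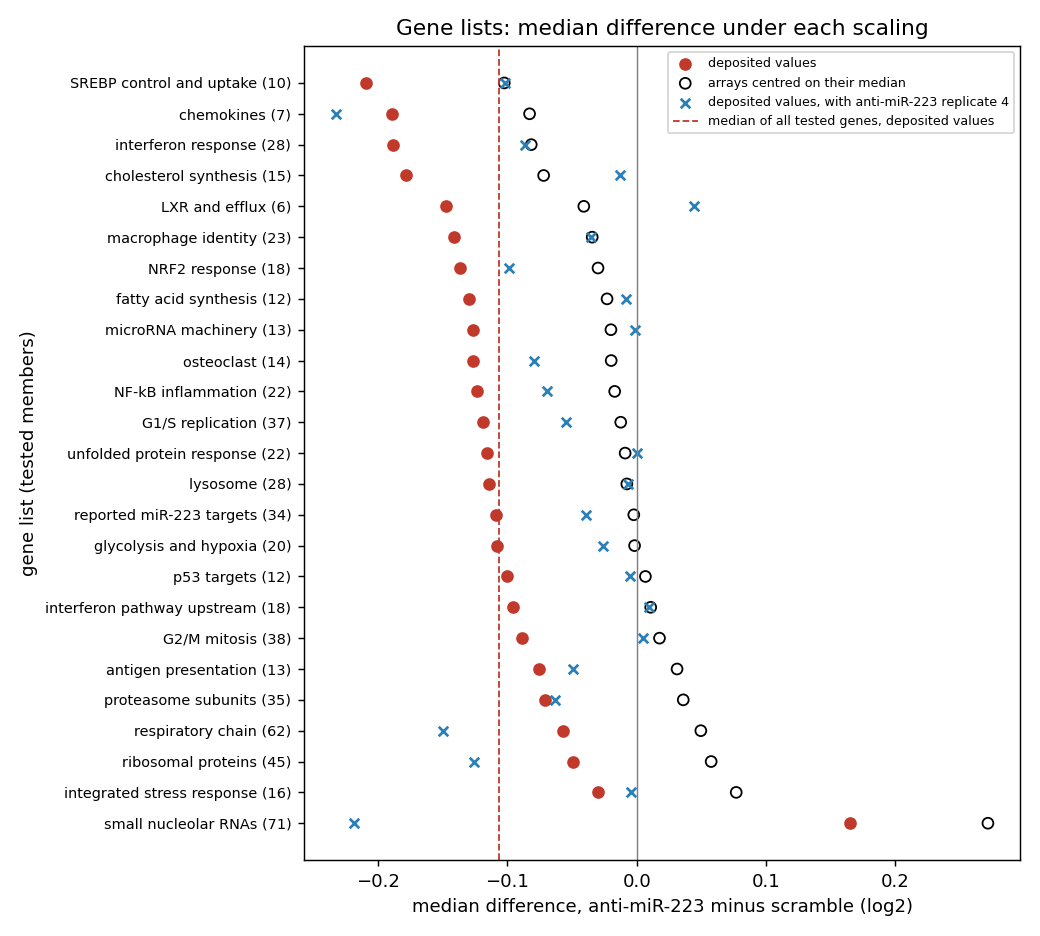
Median difference between anti-miR-223 and scramble (log2) for the 25 gene lists with at least 5 tested members (number in brackets), as deposited (red), after centring each array (open circles) and with anti-miR-223 replicate 4 (crosses). The dashed line is the median of all tested genes at -0.11; the sterol control, chemokine and interferon lists lie below it, and small nucleolar RNAs lie at 0.17 as deposited but at -0.22 with replicate 4.

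The largest differences in size were not those with the smallest p. Only 4 genes differed by over 2-fold, all higher, and 19 higher and 11 lower genes by over 1.5-fold. Olfr1454, annotated as an olfactory receptor, was at 10.24, 10.44 and 8.97 with anti-miR-223 and at 5.83, 3.88, 9.96 and 9.91 with scramble. Its 3 anti-miR-223 arrays overlapped scramble replicates 3 and 4, and scramble replicates 1 and 2 were far below. The difference was 2.49 (95% CI -0.02 to 4.99), or 1.32 without scramble replicate 2. Mettl7a3, a methyltransferase-like gene, differed by 1.83, Tuba1b, an alpha-tubulin, by 1.11 and Rps18, a ribosomal protein, by 1.08.

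The same arrays were low for all of the 10 largest differences, which also included Vmp1, Morf4l1-ps1, Mef2c, Ppp2ca, 1810037I17Rik and Zfp526. Scramble replicates 1 and 2 lay below scramble replicates 3 and 4 in each of the 10, and replicate 4 of anti-miR-223 was below all 7 compared arrays in each. Ppp2ca, the catalytic subunit of protein phosphatase 2A, was at 8.36, 6.52, 9.33 and 9.17 with scramble, at 9.22, 9.42 and 8.98 with anti-miR-223 replicates 1 to 3 and at 3.76 in replicate 4. Its difference of 0.86 (95% CI -0.20 to 1.93) was 0.25 without scramble replicate 2. Several of these genes have near-identical relatives or further clusters, so the source of their signal is uncertain.

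**Figure D5:**
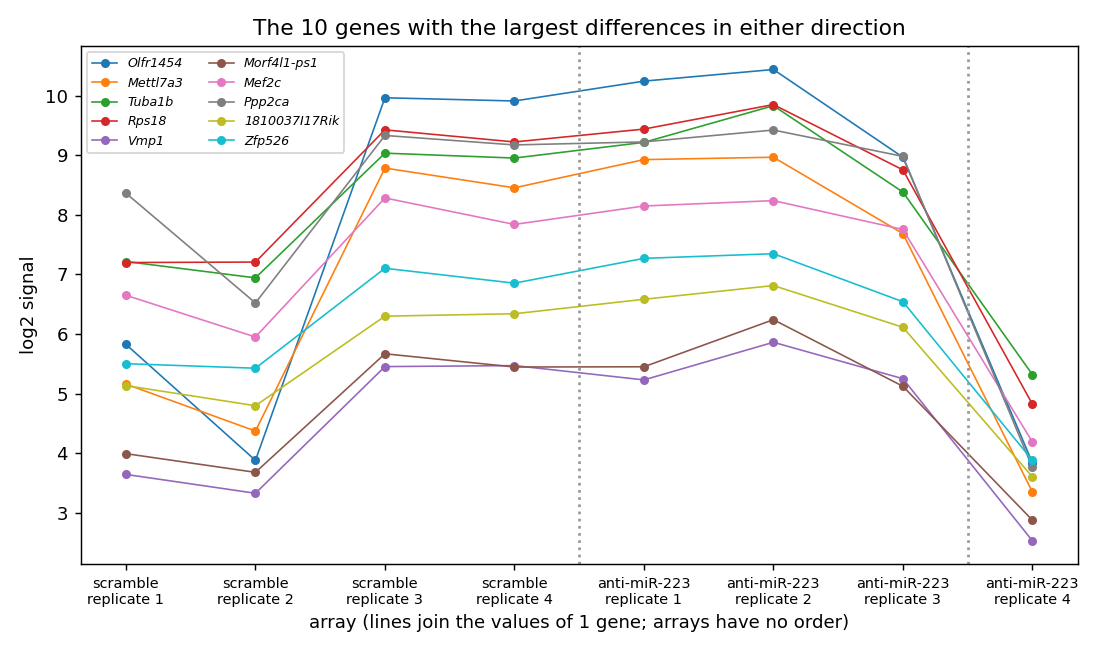
Log2 signal of the 10 genes with the largest differences in either direction, with 1 line per gene across the 4 scramble arrays, the 3 compared anti-miR-223 arrays and anti-miR-223 replicate 4. All 10 are low in scramble replicates 1 and 2, high in scramble replicates 3 and 4 and in anti-miR-223 replicates 1 to 3, and low again in anti-miR-223 replicate 4, as with Olfr1454 at 5.83 and 3.88 against 9.96 and 9.91 in the scramble arrays.

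The mimic was set beside the inhibitor to see where they differ. The pre-miR-223 arrays were compared with the same 4 scramble arrays, so the 2 comparisons share their controls and only the values are given. The median difference of all tested genes was -0.11 for each. The interferon response had medians of -0.19 with anti-miR-223 and -0.17 with pre-miR-223, chemokines -0.19 and -0.24, and cholesterol synthesis -0.18 and -0.19. Ribosomal proteins had -0.05 and -0.25, respiratory chain subunits -0.06 and -0.21, and small nucleolar RNAs 0.17 and 0.04. For Epsti1 the differences were -0.77 and -0.29, for Ccl2 -0.68 and -0.42, for Irf7 -0.17 and -0.52, and for Mef2c 0.87 and 1.09.

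Tested directly in a fit of 11 arrays, limma called 0 of 6957 genes (0.00%) between anti-miR-223 and pre-miR-223, and the lowest adjusted p was 0.935. At an unadjusted p under 0.05 were 183 genes higher (2.63%) and 151 lower (2.17%) with anti-miR-223. About 348 genes, both directions together, would be expected at that p by chance. Tma7 was higher with the inhibitor than with the mimic by 0.67, Terc by 0.54 and Rps27 by 0.45, and Epsti1 differed by -0.48, Ulbp1 by -0.43 and Telo2 by -0.42. The adjusted p from limma was 0.935 for each of these genes. They were chosen by their difference from scramble in the same anti-miR-223 arrays, so these values are not a second test. The median difference of the reported miR-223 targets was -0.03 between inhibitor and mimic, beside 0.00 for all tested genes.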

How the data were processed

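Total RNA was labelled for Affymetrix whole-transcript arrays, per the labels' protocols. The authors deposited 1 table of log2 values for 41345 transcript clusters on 12 arrays; Expression Console, RMA and Partek are listed in the submitters' processing notes without versions or roles. No source gives the log base; base 2 was assumed from the RMA method and from the range of the deposited values, 0.53 to 12.45. The genome build used for the clusters is not given in the sources used here. RMA scales the arrays to each other, so a change in total RNA output cannot be seen. The deposited distributions were still not equal: the median of the tested genes ran from 5.49 (pre-miR-223 replicate 4) to 5.95 (anti-miR-223 replicate 4).

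Of the clusters, 23521 had exactly 1 symbol, covering 22180 genes; 1082 genes had more than 1 such cluster, and the brightest was kept. Sequences are RefSeq's (GRCm38.p6), with 30 of 39 tested microRNA genes matched. The test was limma's moderated linear model (version 3.58.1, R 4.3.3; lmFit, eBayes, 5 residual degrees of freedom, 2-sided, Benjamini-Hochberg over 6957 genes); inhibitor and mimic were compared in a fit of 11 arrays with 8 residual degrees of freedom. The procedure was tested on simulated data with independent normal noise and no shift of whole arrays. That simulation does not cover shifts such as those seen here. No count depth exists for arrays, so precision is limited by their number. For a single value, 3 against 4 arrays cannot give an exact 2-sided permutation p below 0.0571.

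The genes named were the 10 lower and 10 higher genes with the smallest p, leaving out predicted, olfactory, vomeronasal and small RNA genes and pseudogenes; the member with the smallest p in each direction of each list with at least 5 tested members; and Mef2c, Nlrp3, Nfia, Lmo2, Rhob, Stmn1, E2f1, Fbxw7, Foxo3, Ccl2, Srebf2, Abca1 and Irf7 where tested, 67 genes in all. Some further genes of this rule are not reported here. Any other gene was picked with its values in view. The comparison, the left-out array and the gene lists were chosen with earlier results of these data known. Lists are described by counts and medians, with no test. Alternatives were single arrays left out, replicate 4 restored with and without array weights, other scalings, level limits, cluster rules and models, and the replicate number as a block.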

Additional observations from a re-analysis of the deposited data

Results flagged for a closer look

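Among 93 values of named genes and list medians examined in the 4 scramble arrays, 11 had a lone array far from the other 3. For independent values chance would give about 1 in 20, or 4.65. These values share the same 4 arrays and are not independent, so 11 cannot be read as an excess over 4.65. Scramble replicate 2 was the lone array in 9 of the 11 and was the highest each time. Its median deviation from the mean of the 7 arrays was 0.15 (0.1507) for all tested genes, against 0.0006 to 0.0168 in the others, and it was 0.1619 for G2/M mitosis, 0.1607 for the unfolded protein response, 0.1066 for ribosomal proteins, 0.1371 for proteasome subunits and 0.2141 for osteoclast genes. Samd9l stood at 4.563 in this array against 4.444 to 4.456, Mdm2 at 6.515 against 5.99 to 6.048, and Ero1a at 7.328 against 6.855 to 6.921. Without scramble replicate 2, the genes at an unadjusted p under 0.05 numbered 274.

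Nfkbid was set apart by scramble replicate 4, at 5.256 against 5.076 to 5.092. Ccl2 was set apart by scramble replicate 1, at 5.061 against 5.709 to 5.812, inside the range of anti-miR-223.

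In the array not compared, anti-miR-223 replicate 4, 8.71% of genes lay over 2-fold from the mean of the 7 arrays, against at most 0.359% in a scramble array.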

How the results depend on the processing

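Limma called 0 genes between anti-miR-223 and scramble in all 19 alternatives, with a lowest adjusted p of 0.103 (11 arrays in the fit, Epsti1), and 0 between anti-miR-223 and pre-miR-223 in all of its alternatives. The 637 genes at an unadjusted p under 0.05 ranged from 251 to 1389 with 1 array left out: 256 without anti-miR-223 replicate 1, 251 without replicate 2, 1389 without replicate 3 and 274 without scramble replicate 2. They were 76 with anti-miR-223 replicate 4, 419 with centred arrays, 419 with cyclic loess, 1542 with no limit on level (22180 genes tested, 535 higher and 1007 lower), 254 above log2 6 (2817 tested), 406 with an ordinary linear model and 378 with the replicate number as a block. The cause of these moves was not tested, apart from the number of genes tested under other limits on level. The deviations of same-numbered arrays correlated at 0.036, -0.183 and -0.304. These 3 values alone cannot settle whether the replicate numbers paired the arrays.

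Of 67 named genes, 50 kept their direction in every alternative. Most of the 67 were picked for a small p in these same arrays, so a kept direction is no separate support. Some alternatives could not turn a direction, because they leave the difference of a gene as it was. These were the pre-miR-223 arrays added to the fit, other limits on level and other variance models. The mean of all clusters of a symbol likewise changed nothing for a gene with 1 cluster. The replicate block gave the same differences as leaving out scramble replicate 4, with H2-M3 at -0.0117 in both, so it was no separate check. The count of 50 therefore rests on the other settings. With anti-miR-223 replicate 4, Cebpb turned to -0.18, Wars to 0.0463, Psma6 to -0.10, Mef2c to -0.0978, Cd80 to 0.0725, Stmn1 to 0.0495 and Fbxw7 to 0.0109; with array weights as well, Bub1 turned to -0.0069 and Lmo2 to 0.0904. Centring turned Lmo2 to 0.0984, Stmn1 to 0.0379, E2f1 to 0.0222 and Fbxw7 to 0.0047; repeated quantile normalisation turned Lmo2 to 0.0697; cyclic loess turned Lmo2 to 0.0832, Stmn1 to 0.0013 and E2f1 to 0.0107; the block turned H2-M3 to -0.0117. With single arrays left out, Samd9l ranged from -0.0218 to 0.17, Marcksl1 from -0.0616 to 0.15, Mvk from -0.0649 to 0.29, Bub1 from -0.12 to 0.14, Aen from -0.0743 to 0.12, Srxn1 from -0.0247 to 0.33, Psma6 from -0.0176 to 0.047, Dcp2 from -0.0615 to 0.16, H2-M3 from -0.11 to 0.15, Lmo2 from -0.0652 to 0.0996 and Stmn1 from -0.17 to 0.052. Of the 50 genes that kept their direction, 16 moved by over 1.5 times when 1 array was left out, among them Rps27, Socs3, Me1, Sec61b, Cox7b, Nlrp3, Srebf2 and Irf7.

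In the 7 compared arrays, the confidence interval left out a 2-fold difference in either direction for 99.5% of tested genes. These intervals were computed after an array was left out by its measured distance, and they do not cover its spread. The delivery of the inhibitor was also not checked, so 2-fold effects of inhibiting the microRNA are not excluded. Differences near the shift of all genes, 0.11, could not be told from scaling. The small nucleolar RNA median changed sign with 1 array.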
